A study of Arabidopsis thaliana with 72 samples.

Results

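The genes described here are 9 sulfur-deficiency genes of Arabidopsis thaliana, LSU1, LSU2, LSU3, SDI1, SDI2, APR1, APR2, APR3 and BGLU28, taken by name from the 37336 genes of a table of raw read counts. The set was chosen by the counts of LSU2 in the F1 hybrids and their parents, where LSU2 was lower in the Ws/Ler hybrids than in the mean of the parents and not so in the Col/Ler hybrids. These values are therefore given below as a description without a test. All 9 genes had a count in at least 1 library. Of these, 8 passed the filter of 50 counts in at least 1 library in every fit, and BGLU28 passed it only in the fits that held the line cl_sml2.

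RNA-seq was made from rosette leaves 25 days after sowing in 72 libraries, 3 in each of 24 groups, and no group differed from another by a sulfur treatment in its labels. Hybrid Mimics are F7 lines bred by recurrent selfing from F2 plants chosen for the large F1-like phenotype, and small lines were bred in the same way for small plants. The Ws/Ler system held the Hybrid Mimics WL_HM1 to WL_HM7, the small lines wl_sml1 and wl_sml2, the reciprocal F1 hybrids WsxLer and LerxWs, and the parent Ws. The Col/Ler system held the Hybrid Mimics CL_HM1 to CL_HM6, the small lines cl_sml1 and cl_sml2, the F1 hybrids ColxLer and LerxCol, and the parent Col. Both systems shared the same 3 libraries of the parent Ler. Parent and hybrid libraries were each made from 3 pooled plants, while each F7 library held 1 plant, so the 3 libraries of a line are sister plants of 1 selfed line, and the lines rather than the plants are independent products of selection. The study left CL_HM5 and CL_HM6 out of its whole transcriptome analysis because of their plant size at this age. They are left out here where Hybrid Mimics are compared with small lines and are described elsewhere, with counts given with and without them.

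Plants take up sulfate, activate it to adenosine phosphosulfate (APS) and reduce it to sulfide for cysteine, or use the activated form for glucosinolates. When sulfur runs short, the transcription factor SLIM1 and other regulators raise sulfate transporters and a small set of marker genes. The LSU (RESPONSE TO LOW SULFUR) genes encode small proteins that bind many partners, among them enzymes of stress and sulfur metabolism. SDI1 and SDI2 (SULFUR DEFICIENCY-INDUCED) encode proteins that lower glucosinolate synthesis, SDI1 by binding the MYB28 activator. APR1, APR2 and APR3 encode the plastid APS reductases, which make sulfite from APS and carry much of the control of the pathway. BGLU28 encodes a beta-glucosidase of the myrosinase type that takes part in releasing sulfur from glucosinolates.

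In the TAIR10.1 genome, LSU1 (AT3G49580) lay at chr3:18374908-18375940 and LSU3 (AT3G49570) beside it at chr3:18372404-18373147, both on the minus strand. LSU2 (AT5G24660) lay at chr5:8443279-8444101, next to its near copy LSU4 (AT5G24655) at chr5:8440601-8441364, again both on the minus strand. SDI1 (AT5G48850) lay at chr5:19805437-19807853, SDI2 (AT1G04770) at chr1:1336274-1337849 and APR2 (AT1G62180) at chr1:22975530-22977885, all on the minus strand. APR3 (AT4G21990) lay at chr4:11657008-11659167 on the minus strand, and APR1 (AT4G04610) at chr4:2324878-2327064 and BGLU28 (AT2G44460) at chr2:18346306-18350026 lay on the plus strand. The coding sequences of LSU2 and LSU4 were 88.9% identical with a longest identical run of 30 bases, and those of LSU1 and LSU3 were 83.8% identical with a longest run of 23 bases. APR1 and APR3 were 82.4% identical with a longest run of 41 bases. An annotated gene overlapped SDI2, APR1, APR2 and APR3 on the other strand. Since the strand setting of the counting was not given, the effect of this overlap on the counts of these 4 genes is not known.

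The 250 bases before the annotated transcript start are shown for the 3 LSU genes and for SDI1, the members with the widest range of levels apart from BGLU28, read 5′ to 3′ on the gene's own strand. The LSU1 window is chr3:18375941-18376190, the LSU2 window chr5:8444102-8444351, the LSU3 window chr3:18373148-18373397 and the SDI1 window chr5:19807854-19808103, all in TAIR10.1 and as in the Col reference, not in Ws or Ler. Capitals mark the GAGAC core of the sulfur-responsive element, which reads GTCTC on the other strand, and the G-box CACGTG.
LSU1: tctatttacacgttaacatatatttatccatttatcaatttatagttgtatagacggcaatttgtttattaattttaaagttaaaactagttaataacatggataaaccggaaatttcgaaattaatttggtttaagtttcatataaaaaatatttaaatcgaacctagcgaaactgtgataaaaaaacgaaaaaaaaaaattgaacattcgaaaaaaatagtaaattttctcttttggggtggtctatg
LSU2: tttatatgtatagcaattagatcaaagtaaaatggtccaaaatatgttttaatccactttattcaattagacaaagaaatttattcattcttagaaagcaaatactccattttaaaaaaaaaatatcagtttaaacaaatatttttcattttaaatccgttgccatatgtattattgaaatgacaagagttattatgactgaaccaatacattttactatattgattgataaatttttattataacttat
LSU3: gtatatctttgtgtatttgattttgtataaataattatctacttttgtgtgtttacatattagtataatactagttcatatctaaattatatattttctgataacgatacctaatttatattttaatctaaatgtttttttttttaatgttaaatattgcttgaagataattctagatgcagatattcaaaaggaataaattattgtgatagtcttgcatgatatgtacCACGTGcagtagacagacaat
SDI1: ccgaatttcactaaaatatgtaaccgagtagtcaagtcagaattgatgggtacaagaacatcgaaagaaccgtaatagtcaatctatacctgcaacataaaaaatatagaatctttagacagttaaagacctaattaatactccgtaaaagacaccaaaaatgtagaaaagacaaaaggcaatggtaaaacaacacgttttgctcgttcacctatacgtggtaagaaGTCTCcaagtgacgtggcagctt
The GAGAC core stood in the windows of SDI1, with its first base at position -23, and BGLU28, at -115, that is in 2 of the 9 members, and in 25.8% of 27438 windows of the same length. The G-box stood in the LSU3 window at -21, in 1 of the 9 members and in 6.49% of all windows. The letters CATTGAA, or TTCAATG on the other strand, which form the core of the UPE-box, were in none of the 9 windows and in 5.35% of all windows. Position -1 is the base before the transcript start, both strands were searched, and the G-box reads the same on both.

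Library totals ran between 17741358 and 28527725 counts with a median of 20432113. Levels below are CPM, the count of a gene per 1000000 counts of its library, after TMM scaling over the 72 libraries. Photosynthesis genes were high in every library, while root and seed marker sums stayed at or under 0.618 and 0.156 CPM, so the leaf label fits its markers. The third library of WL_HM3 stood apart, with a senescence marker sum of 1279 CPM, of which the marker SAG13 alone gave 1226 CPM. Without this library, the number of calls of all 8 members tested, LSU2 included, in the Ws/Ler lines against their parents stayed at 12.

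Per kilobase of transcript and averaged over all groups, APR1 was the highest member at 99.0 CPM per kb, ahead of APR3 at 39.7, LSU2 at 26.4, APR2 at 21 and LSU1 at 12.4 CPM per kb. SDI2, SDI1 and LSU3 lay at 8.96, 8.43 and 6.28 CPM per kb, and BGLU28 was close to undetected at 0.162 CPM per kb. APR1 counts ran between 1685 and 14683 per library. LSU1, LSU2, LSU3 and SDI1 went as low as 13 to 18 counts in their lowest libraries, and BGLU28 had a median of 3 counts and was at 0 in 16 libraries.

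LSU2 spanned the widest range of the members with a group mean above 0 everywhere, 51.9-fold between its highest and its lowest group. In the Ws/Ler lines, LSU2 stood at 20.2, 23.1 and 29.3 CPM in WL_HM1, at 6.13, 8.44 and 4.29 CPM in WL_HM2 and at 2.59, 4.28 and 2.42 CPM in WL_HM3. It was at 2.18, 3.60 and 2.18 CPM in WL_HM4, 19.8, 17.0 and 23.5 CPM in WL_HM5, 28.1, 13.3 and 14.6 CPM in WL_HM6 and 23.2, 37.6 and 40.0 CPM in WL_HM7. The Hybrid Mimics thus fell apart into WL_HM1, WL_HM5, WL_HM6 and WL_HM7, all at 13.3 CPM or more in every library, and WL_HM2, WL_HM3 and WL_HM4, all at 8.44 CPM or less. Among the small lines, LSU2 stood at 3.62, 1.80 and 36.4 CPM in wl_sml1 and at 7.69, 4.43 and 7.63 CPM in wl_sml2. The third wl_sml1 plant was thus more than 10 times as high as its sisters. The F1 libraries were at 2.69, 1.5 and 2.23 CPM in WsxLer and 2.37, 2.74 and 2.62 CPM in LerxWs, and the parents at 0.746, 1.82 and 1.13 CPM in Ws and 15.5, 10.9 and 28.5 CPM in Ler.

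In the Col/Ler system LSU2 never came near the Ws level. The line means were 17.0, 20.6, 17.1, 37.2, 42.1 and 24.4 CPM in CL_HM1 to CL_HM6. The small lines were the highest, at 49.8, 52.3 and 50.7 CPM in cl_sml1 and 57.7, 69.5 and 64.6 CPM in cl_sml2. The F1 libraries had 33.4, 25.0 and 28.4 CPM in ColxLer and 44.0, 26.2 and 30.8 CPM in LerxCol, with Col itself at 27.1, 35.6 and 32.8 CPM. Every library of the Col/Ler lines and hybrids lay at or above 10.9 CPM. When the 24 group means were ordered, the libraries of neighbouring groups failed to overlap at only 2 of 23 steps.

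**Figure D1:**
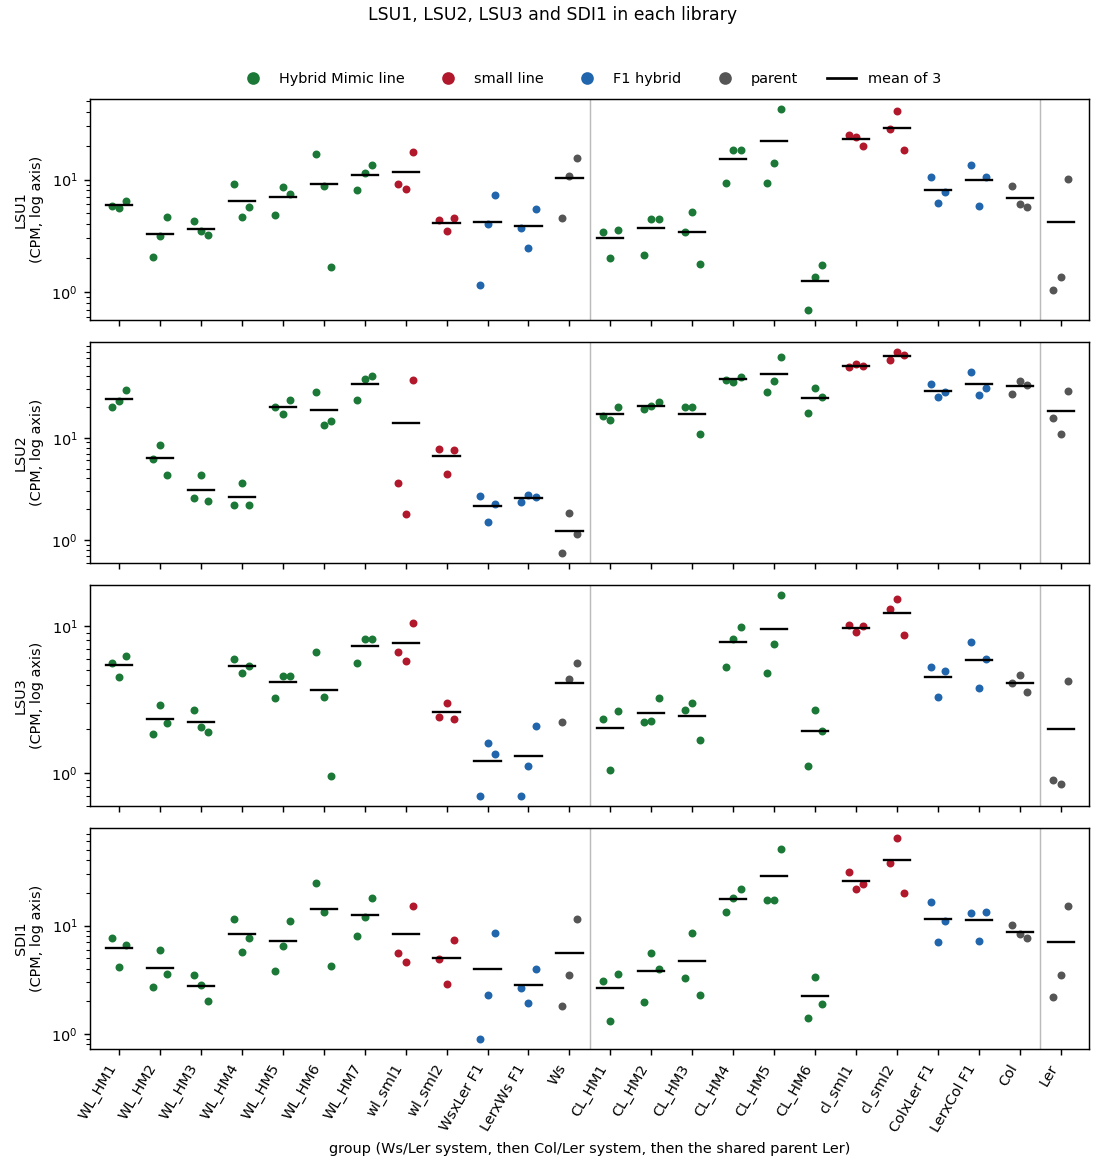
LSU1, LSU2, LSU3 and SDI1 in CPM on a logarithmic axis, 1 point per library and a black line at the mean of 3 libraries, with Hybrid Mimics in green, small lines in red, F1 hybrids in blue and parents in grey. LSU2 was at 2.74 CPM or less in Ws and in all 6 Ws/Ler F1 libraries and at 49.8 CPM or more in both Col/Ler small lines.

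LSU1 and LSU3 had another order. LSU1 was highest in cl_sml2 at 28.2, 40.4 and 18.2 CPM, in cl_sml1 at 24.9, 23.8 and 19.8 CPM and in CL_HM5 at 9.29, 14.1 and 42.5 CPM, and lowest in CL_HM6 at 0.696, 1.35 and 1.74 CPM. Its highest and lowest group means, in cl_sml2 and CL_HM6, were 22.9-fold apart. In the Ws/Ler lines the LSU1 means lay between 3.27 CPM in WL_HM2 and 11.6 ± 5.10 CPM in wl_sml1 (SD, n = 3), and only 1 of 23 steps in the order of the 24 groups was free of overlap. LSU1 was at 4.57, 10.8 and 15.7 CPM in Ws, 1.04, 1.36 and 10.1 CPM in Ler and 8.82, 6.08 and 5.67 CPM in Col. The third Ler library was thus far above its fellows, as it was for LSU3 with 4.21 CPM against 0.901 and 0.838 CPM in the other Ler libraries.

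LSU3 means lay between 1.22 CPM in WsxLer and 12.3 CPM in cl_sml2, a 10.1-fold range, and no neighbouring groups in the order were free of overlap. LSU3 reached 13, 15.3 and 8.73 CPM in cl_sml2 and 10.1, 9.09 and 9.99 CPM in cl_sml1. These 2 groups held the highest LSU3 means of the series, as they did for LSU1 and LSU2.

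SDI1 followed the LSU1 order more than the LSU2 order. It was highest in cl_sml2 at 37.7, 64.4 and 19.8 CPM, in CL_HM5 at 17.2, 17.3 and 51.4 CPM and in cl_sml1 at 31.3, 22.0 and 24.1 CPM. It was lowest in CL_HM6 at 1.39, 3.37 and 1.89 CPM, an 18.3-fold range of group means. SDI1 in the parents stood at 1.82, 3.50 and 11.4 CPM in Ws, 10.1, 8.37 and 7.75 CPM in Col and 2.18, 3.51 and 15.3 CPM in Ler. SDI2 moved far less, with group means between 6.31 ± 0.523 CPM in Ler and 20.5 CPM in cl_sml1 (SD, n = 3), a 3.25-fold range.

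APR1 group means lay between 107 CPM in CL_HM3 and 392 ± 44.9 CPM in wl_sml1, a 3.67-fold range. The 4 small lines held the 4 highest APR1 means, with 428, 342 and 407 CPM in wl_sml1, 246, 551 and 253 CPM in cl_sml2, 290, 264 and 284 CPM in cl_sml1 and 263, 291 and 263 CPM in wl_sml2. APR2 had a different order, with its lowest mean in wl_sml2 at 16.7, 18.0 and 17.0 CPM, the next lowest in wl_sml1 at 18.8, 17.8 and 28.6 CPM and the highest in CL_HM5 at 86.0, 82.9 and 58.5 CPM. APR3 was highest in cl_sml1 at 179, 123 and 135 CPM, in cl_sml2 at 110, 221 and 95.6 CPM and in CL_HM4 at 125, 133 and 149 CPM. The lowest APR3 mean was in LerxWs at 29.5, 50.8 and 33.7 CPM, and no neighbouring groups in the APR2 or APR3 order were free of overlap.

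BGLU28 was read at a handful of counts in most libraries. In cl_sml2 it had 88, 107 and 10 counts, or 3.92, 4.02 and 0.443 CPM, and no other group reached 50 counts. BGLU28 was at 0.620, 0.982 and 0.641 CPM in cl_sml1, at 0 counts in all 3 libraries of CL_HM2 and at 1, 0 and 0 counts in Col. Differences at these depths were mostly not detectable.

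**Figure D2:**
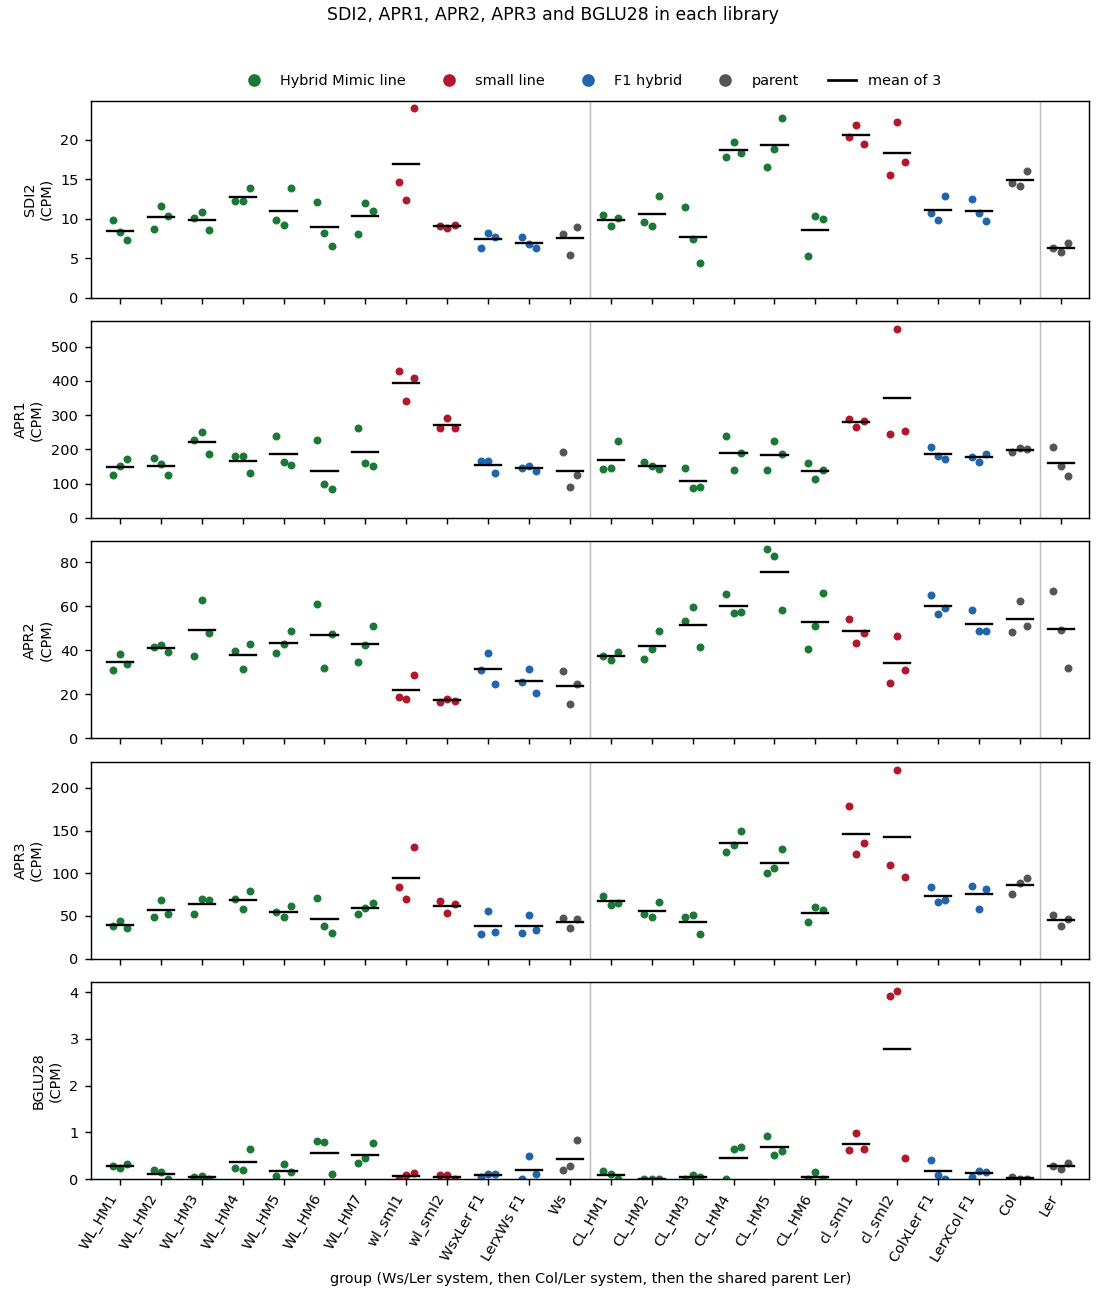
SDI2, APR1, APR2, APR3 and BGLU28 in CPM on linear axes that start at 0, 1 point per library and a black line at the mean of 3, with groups and colours as in the plot of the LSU genes. The 4 small lines hold the 4 highest APR1 means, 273 to 392 CPM, and the Ws/Ler small lines the 2 lowest APR2 means, 17.3 and 21.8 CPM.

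The hybrids are set beside the mean of their parents without a test, since this contrast chose LSU2. LSU2 averaged 2.36 ± 0.465 CPM in the Ws/Ler F1 hybrids (SD, n = 6) against a mid-parent level of 9.78 CPM, a ratio of 0.241, and 31.3 ± 6.92 CPM in the Col/Ler F1 hybrids (SD, n = 6) against 25.1 CPM, a ratio of 1.25. LSU3 was at 1.26 ± 0.542 CPM in the Ws/Ler hybrids against 3.03 CPM for the parents, a ratio of 0.416, with a ratio of 1.71 in the Col/Ler hybrids. LSU1 had ratios of 0.554 and 1.64 in the Ws/Ler and the Col/Ler hybrids, and SDI1 had ratios of 0.540 and 1.44. These 4 genes lay below the mid-parent level in the Ws/Ler hybrids and above it in the Col/Ler hybrids.

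SDI2, APR1, APR2 and APR3 stayed nearer to the parents. SDI2 had a ratio of 1.04 in both systems and APR1 of 1.01 in both. APR2 stood at 0.785 and 1.08 times the mid-parent level in the Ws/Ler and the Col/Ler hybrids, and APR3 at 0.863 and 1.13 times. BGLU28 averaged 0.142 CPM in the Ws/Ler hybrids against 0.358 CPM for the parents, a ratio of 0.397, and had a ratio of 0.970 in the Col/Ler hybrids, at 0 to 11 counts in each hybrid library. The Ler libraries entered both mid-parent levels, so the 2 sets of ratios are not independent, and the third Ler library, high in LSU1, LSU3, SDI1 and LSU2, raises the mid-parent level of both.

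The direction of the cross made no detected difference to any member. In edgeR's quasi-likelihood test, where a gene was called at a Benjamini-Hochberg adjusted p of 0.05 or less over all genes tested, 0 of 8 members were called between WsxLer and LerxWs and 0 of 9 between ColxLer and LerxCol, beside 0.0165% and 0% of all genes tested. None of the members had an unadjusted p under 0.05 in either comparison and DESeq2 called 0 in both. Over all genes edgeR called 3 and 0, with 383 and 249 at an unadjusted p under 0.05, and DESeq2 called 4 and 0. The log2 differences of the members lay between -0.28 and 0.46 for WsxLer against LerxWs and between -0.38 and 0.45 for ColxLer against LerxCol.

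The parents themselves lay far apart in LSU2. All LSU2 values in the parents entered the choice of the set, so they are given with no test, as are the LSU2 differences from a mid-parent level below. LSU2 averaged 1.23 ± 0.545 CPM in Ws against 18.3 ± 9.13 CPM in Ler (SD, n = 3 each), with no overlap. APR2 stood at 30.5, 15.5 and 24.8 CPM in Ws against 67.0, 49.4 and 32.1 CPM in Ler, without overlap, and its log2 fold change of -1.08 ± 0.29 passed the test (SE, edgeR adjusted p = 0.029). It was the 1 member called of the 7 other than LSU2 and BGLU28, beside 20.7% of all genes tested. APR2 no longer passed the test without the first or second library of Ler or the second or the third of Ws, where the log2 fold change lay between -1.12 and -0.79. Without the third Ler library LSU1 and LSU3 were called higher in Ws as well, 3 of 7 in all, against log2 fold changes of 1.28 ± 0.74 for LSU1 and 1.01 ± 0.57 for LSU3 with it.

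Col differed from Ler in APR3 and SDI2. APR3 stood at 75.9, 89.0 and 93.9 CPM in Col against 51.3, 38.5 and 45.9 CPM in Ler, and SDI2 at 14.5, 14.1 and 16.0 CPM in Col against 6.26, 5.81 and 6.85 CPM in Ler. Neither gene overlapped between the parents. APR3 was higher by a log2 fold change of 0.95 ± 0.15 (edgeR adjusted p = 0.0024) and SDI2 by 1.25 ± 0.18 (edgeR adjusted p = 0.0015). These were 2 of the same 7 members, beside 14.4% of all genes tested, and LSU1 and LSU3 joined them without the third Ler library. LSU2 averaged 31.9 ± 4.36 CPM in Col against 18.3 ± 9.13 CPM in Ler.

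Each F7 line was then compared with its mid-parent value (MPV), made by adding the counts of 1 library of each parent. All lines of a system shared the same MPV libraries and some members varied together, so the gene-by-line tests are not independent. Counts of calls are over the 7 members other than LSU2, whose parental values chose the set, and BGLU28. In the Ws/Ler Hybrid Mimics 3 of 49 gene-by-line tests of these members were called higher and 0 lower, beside 9.04% higher and 12% lower over all genes. SDI2 rose in WL_HM4 by 0.91 ± 0.22 (edgeR adjusted p = 0.0025) and in WL_HM5 by 0.68 ± 0.22 (edgeR adjusted p = 0.031), and LSU3 rose in WL_HM7 by 1.28 ± 0.43 (edgeR adjusted p = 0.041). No member was called in WL_HM1, WL_HM2, WL_HM3 or WL_HM6, where edgeR gave 1, 1, 4 and 0 of the 8 members tested an unadjusted p under 0.05. As a description, LSU2 stood 1.33, 1.07, 0.97 and 1.81 above the MPV on the log2 scale in WL_HM1, WL_HM5, WL_HM6 and WL_HM7, and had log2 differences of -0.61, -1.62 and -1.83 in WL_HM2, WL_HM3 and WL_HM4.

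Of these 3 calls, 2 rested on single libraries. LSU3 in WL_HM7 was not called without any 1 of its libraries or without the first or second parental pair, at 0.96 to 1.43, and SDI2 in WL_HM5 was not called without the third of its libraries or the same parental pairs, at 0.46 to 0.70. The mid-parent level of LSU2 depends on the scale, because Ws and Ler were so far apart. With the MPV taken on the log scale, LSU2 was at -0.82 in WL_HM4 and at 2.34, 2.08, 1.97 and 2.82 in WL_HM1, WL_HM5, WL_HM6 and WL_HM7. It was then at 0.41 in WL_HM2 and -0.61 in WL_HM3. On that scale the 7 members had 6 higher and 0 lower calls in the Hybrid Mimics, beside 13.4% and 13.1% over all genes. Without the third wl_sml1 library the calls were also 6 higher and 0 lower, beside 9.39% and 11.2%.

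The Ws/Ler small lines had 5 calls higher and 2 lower of 14 tests, beside 17.8% and 19.5% over all genes, and 7 higher and 2 lower, beside 28.9% and 13.7%, with total-count scaling. APR1 rose in wl_sml1 by 1.44 ± 0.27 (edgeR adjusted p = 0.00012) and in wl_sml2 by 0.91 ± 0.26 (edgeR adjusted p = 0.0072). APR2 fell by 1.05 ± 0.23 in wl_sml2 (edgeR adjusted p = 0.00076) and by 0.71 ± 0.23 in wl_sml1 (edgeR adjusted p = 0.019). The same lines thus had more transcript of 1 APS reductase gene and less of another. SDI2 and APR3 rose in wl_sml1 by 1.33 ± 0.22 and 1.13 ± 0.26, and LSU3 by 1.37 ± 0.43. APR2 in wl_sml1 was not called without its first or second library or the first parental pair, at -0.63, -0.61 and -0.43, and LSU3 in wl_sml1 not without the third of its libraries or the first or second parental pair, at 1.05 to 1.25.

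The third wl_sml1 library decided where LSU2 lay in that line. With it, LSU2 in wl_sml1 was 0.57 above the MPV on the log2 scale, and without it the difference was -1.83 ± 0.41. The calls of the other 7 members over the 9 Ws/Ler lines came to 10 higher and 2 lower without this library, in place of 8 and 2. The same library was the highest of its line for 8 of the 9 members, for example at 131 CPM for APR3 against 83.4 and 70.4 CPM in the other wl_sml1 libraries and at 15.1 CPM for SDI1 against 5.57 and 4.57 CPM.

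In the 4 Col/Ler Hybrid Mimics that the study kept, CL_HM1 to CL_HM4, 4 calls were higher and 1 lower of 28 tests of the same 7 members, beside 7.63% and 9.32% over all genes, and they fell into 2 of the 4 lines. Over all 6 lines the counts were 10 higher and 3 lower of 42, beside 8.89% and 10.5%, so most of them came from CL_HM5 and CL_HM6. In CL_HM4, APR3 rose by 1.06 ± 0.24 (edgeR adjusted p = 0.0024), LSU1 by 1.49 ± 0.45, LSU3 by 1.37 ± 0.37 and SDI2 by 0.83 ± 0.23. In CL_HM5, 6 of the 7 members rose, among them LSU1 by 2.00 ± 0.46 (edgeR adjusted p = 0.003), SDI1 by 1.87 ± 0.49, LSU3 by 1.66 ± 0.37 and SDI2 by 0.87 ± 0.23. CL_HM6 went the other way, with LSU1 lower by a log2 fold change of -2.09 ± 0.55 (edgeR adjusted p = 0.0052) and SDI1 by -1.79 ± 0.56, and APR1 was lower in CL_HM3 at -0.74 ± 0.25. No member was called in CL_HM1 or CL_HM2, where 3 and 1 of the 9 members had an unadjusted p under 0.05 in edgeR.

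Most of the CL_HM5 values leaned on the third of its plants, in which LSU1 stood at 42.5 CPM and SDI1 at 51.4 CPM. Without that library the log2 fold changes were 1.09 for LSU1, 1.14 for SDI1 and 0.64 for APR3, none of them called, and 1.04 for LSU3, which was still called. LSU2 stood 0.75 above the MPV in CL_HM5 with that library and 0.36 without it. SDI1 and APR3 in CL_HM5 also lost the call without the second parental pair and APR3 without the first, and APR2 at 0.54 ± 0.19 in CL_HM5 lost it under 25 of 40 alternatives. Among these were the fits without the first or the second CL_HM5 library or any parental pair, at 0.41 to 0.63. LSU1 in CL_HM4 was not called without the second or the third of its libraries or the first or second parental pair, at 1.28 to 1.41, LSU3 in CL_HM4 not without the third of its libraries, at 1.17, and SDI2 in CL_HM4 not without the second parental pair, at 0.78. SDI1 in CL_HM6 was not called without the first or the third of its libraries or the third parental pair, at -1.69 to -1.41, nor APR1 in CL_HM3 without the second or the third of its libraries or any parental pair.

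In the Col/Ler small lines most of the members were called higher. Over the 7 members 12 of 14 tests were higher and 1 lower, beside 21.7% and 25.9% over all genes, and 12 were higher and 0 lower, beside 42.5% and 16%, with total-count scaling. LSU1 rose by 2.03 ± 0.46 in cl_sml1 (edgeR adjusted p = 0.00071) and by 2.37 ± 0.46 in cl_sml2 (edgeR adjusted p = 0.00016). LSU3 rose by 1.66 ± 0.37 and 2.00 ± 0.37 in cl_sml1 and cl_sml2, and SDI1 by 1.70 ± 0.49 and 2.35 ± 0.50. APR3 rose by 1.13 ± 0.24 and 1.08 ± 0.24, and SDI2 by 0.93 ± 0.23 and 0.76 ± 0.23. The median log2 fold change of the 7 members was 1.13 in cl_sml1 and 1.08 in cl_sml2, with the median of all genes close to 0. The same median was 1.13 in wl_sml1, 1.06 in CL_HM4 and 0.87 in CL_HM5, so it did not set the Col/Ler small lines apart. LSU2, untested, stood 1.0 above the MPV in cl_sml1 and 1.32 above it in cl_sml2.

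APR1 and APR2 again parted in these lines. APR1 rose by 0.61 ± 0.25 in cl_sml1 (edgeR adjusted p = 0.046) and by 0.93 ± 0.25 in cl_sml2 (edgeR adjusted p = 0.0037), while APR2 fell by 0.63 ± 0.19 in cl_sml2 (edgeR adjusted p = 0.0092) and was at -0.11 in cl_sml1 (edgeR adjusted p = 0.65). BGLU28 passed the count filter only through cl_sml2, where it had to be high, so its levels there are a description. The second plant of cl_sml2 was the highest of its line for all 9 members. Without it APR1 was 0.45 above the MPV and not called, SDI2 was 0.60 above it and not called, and APR3 was 0.62 above it and still called. APR2 in cl_sml2 was not called without its first library, at -0.45, nor with total-count scaling, at -0.37. APR1 in cl_sml1 lost the call under 13 of 41 alternatives. Among these were all fits without any 1 of the cl_sml1 libraries or any parental pair, at 0.54 to 0.70.

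**Figure D3:**
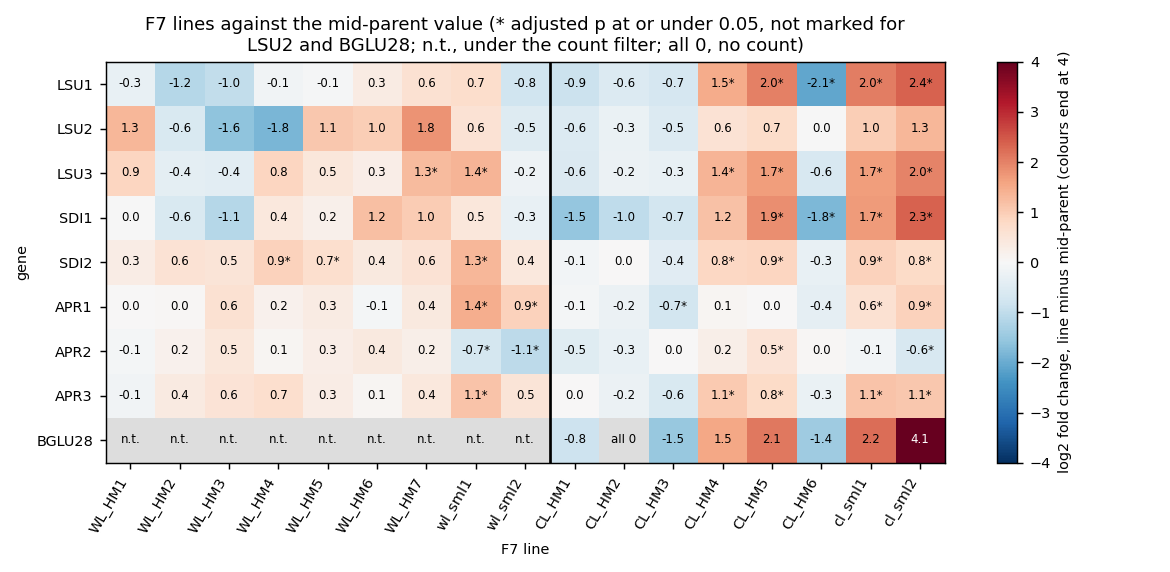
Log2 fold change of each F7 line minus its mid-parent value for the 9 members, in red where higher and blue where lower, with an asterisk at an edgeR adjusted p of 0.05 or less for the 7 members other than LSU2 and BGLU28, n.t. where the gene did not pass the count filter and all 0 where a line had no count. The 2 columns of the Col/Ler small lines hold 12 asterisks at higher and 1 at lower values, and the row of LSU2 changes sign among the Ws/Ler lines.

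Differences among the lines of a system were called for 7 of 8 members in the Ws/Ler system, beside 75.2% of all genes, and for 9 of 9 in the Col/Ler system, beside 81.8%, which is near the share of all genes. BGLU28 was among the 9 only through its counts in cl_sml2, a line in this comparison, so its call is no result. LSU2 had an adjusted p of 2.9e-05 in edgeR's test among the 9 Ws/Ler lines, and SDI1 did not pass there (edgeR adjusted p = 0.062). APR3 lost its call among the Ws/Ler lines without the third wl_sml1 library (edgeR adjusted p = 0.056, against 0.0064 with it), and LSU1 lost it without any of 9 libraries, with adjusted p up to 0.076.

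Hybrid Mimics and small lines were compared with each line as 1 unit. In the Ws/Ler system APR1 averaged 172 ± 29.4 CPM in the 7 Hybrid Mimics (SD of line means), with line means of 137 to 221 CPM, against 392 and 273 CPM in the small lines wl_sml1 and wl_sml2. No Hybrid Mimic library exceeded 262 CPM and no small line library was under 263 CPM. APR1 was lower in the Hybrid Mimics by a log2 fold change of -0.96 ± 0.18 (edgeR adjusted p = 0.0027). APR2 went the opposite way, at 42.2 ± 5.08 CPM in the Hybrid Mimics, with line means of 34.5 to 49.4 CPM, against 21.8 and 17.3 CPM in wl_sml1 and wl_sml2, and was higher in the Hybrid Mimics by 1.09 ± 0.14 (edgeR adjusted p = 0.00042).

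These were 1 member higher and 1 lower of 8, beside 23.4% higher and 22.9% lower over all genes, 46.2% together, so the set as a whole was not called more often than other genes here. LSU1 differed by -0.27 ± 0.49, LSU3 by -0.26, SDI1 by 0.21, SDI2 by -0.37 ± 0.22 and APR3 by -0.51 ± 0.21, none of them called. LSU2 differed by 0.55 ± 0.93 and was not called (edgeR adjusted p = 0.65). Summed without the third wl_sml1 library, a choice made after seeing the data, LSU2 differed by 1.72 ± 1.02 and was still not called (edgeR adjusted p = 0.196). Total-count scaling, also added after seeing the data, moved the median of all genes by -0.21 here and gave 4 called members.

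In the Col/Ler system all LSU, SDI and APR genes other than APR2 had a lower mean over CL_HM1 to CL_HM4 than over the small lines, with SDI2 line means overlapping. LSU2 averaged 23.0 ± 9.65 CPM in the 4 Hybrid Mimics, with libraries of 10.9 to 39.3 CPM, against 50.9 and 63.9 CPM in cl_sml1 and cl_sml2, with libraries of 49.8 to 69.5 CPM. The ranges did not overlap, and LSU2 was lower in the Hybrid Mimics by a log2 fold change of -1.29 ± 0.34 (edgeR adjusted p = 0.036). APR1 averaged 155 ± 35.3 CPM in the Hybrid Mimics, with line means of 107 to 190 CPM, against 280 and 350 CPM in cl_sml1 and cl_sml2, and was lower by -1.01 ± 0.23 (edgeR adjusted p = 0.024).

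The remaining members did not pass the test, although several of their line means lay far apart. LSU1 averaged 6.36 ± 5.97 CPM in the Hybrid Mimics against 22.8 and 28.9 CPM in cl_sml1 and cl_sml2, a log2 difference of -2.0 ± 0.71 (edgeR adjusted p = 0.078). SDI1 averaged 7.20 ± 7.00 CPM in the Hybrid Mimics against a mean of 33.2 CPM in the small lines, a log2 difference of -2.19 ± 0.76 (edgeR adjusted p = 0.073), and LSU3 differed by -1.55 ± 0.57. APR2 differed by 0.22 ± 0.23, and by -0.03 with total-count scaling. The count was 0 higher and 2 lower of 9, BGLU28 among the 9 only through its counts in cl_sml2, beside 16.6% and 13.7% over all genes, 30.2% together, with 6 members at an unadjusted p under 0.05.

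With 4 lines against 2, single lines decided these calls. LSU2 lost its call without CL_HM1, CL_HM2, CL_HM3, cl_sml1 or cl_sml2, at -1.44 to -1.12, and APR1 lost it without CL_HM1, CL_HM2, cl_sml1 or cl_sml2, at -1.18 to -0.82. Leaving out CL_HM4, the line with the highest LSU1 and SDI1 means of the 4, gave 8 called members in place of 2. With CL_HM5 and CL_HM6 added, APR1 alone was called, at -0.99 (edgeR adjusted p = 0.0091), and LSU2 was at -1.07 (edgeR adjusted p = 0.052). The difference between the 2 systems was not called for any of the 9 members, beside 9.73% of all genes, with 3 at an unadjusted p under 0.05 in edgeR. It was 0.86 ± 0.26 for APR2 (edgeR adjusted p = 0.056), 1.84 ± 1.16 for LSU2 (edgeR adjusted p = 0.36) and 0.05 ± 0.32 for APR1 (edgeR adjusted p = 0.95).

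**Figure D4:**
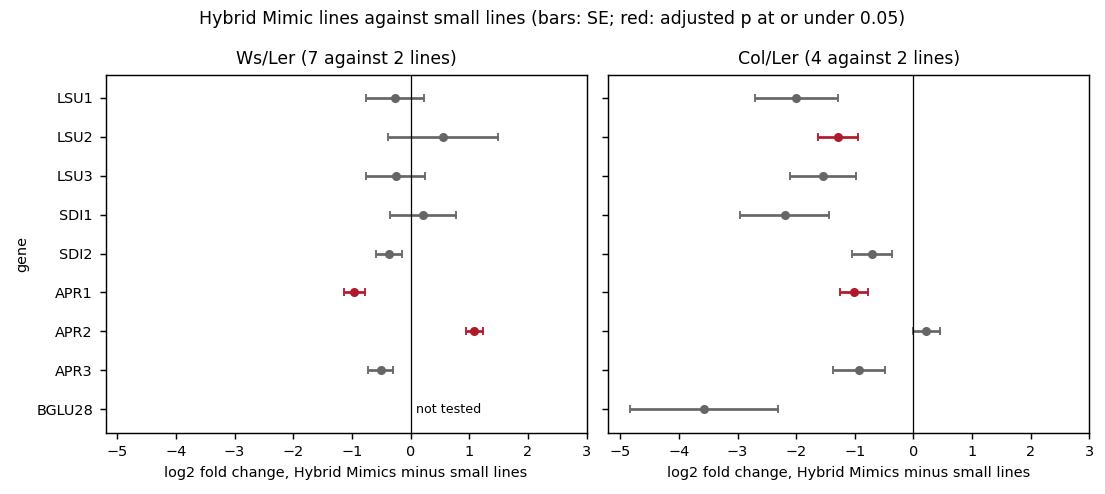
Log2 fold change of Hybrid Mimics over small lines with its standard error for each member, in the Ws/Ler system (7 against 2 lines) and the Col/Ler system (4 against 2 lines), with genes at an edgeR adjusted p of 0.05 or less in red. APR1 lies at -0.96 in the Ws/Ler and -1.01 in the Col/Ler panel, APR2 at 1.09 and 0.22 and LSU2 at 0.55 and -1.29.

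Other marks differed between these classes too. The summed level of 4 photosynthesis markers was 44938 to 81422 CPM in the libraries of the Ws/Ler Hybrid Mimics against 27652 to 39088 CPM in their small lines, and 50498 to 68839 CPM in CL_HM1 to CL_HM4 against 28783 to 32860 CPM in cl_sml1 and cl_sml2. Of these 4 genes 3 were called higher in the Ws/Ler Hybrid Mimics and 4 in the Col/Ler ones. A sum of 5 senescence markers was 17.3 to 1279 CPM with a median of 42.9 in the Ws/Ler Hybrid Mimics against 111 to 260 CPM in their small lines. In the Col/Ler system the sum was 24.4 to 286 CPM against 134 to 549 CPM. SAG13 had a median of 36.4 CPM over all libraries, beside 64.2 CPM for the sum, and SAG12 was at 0 in 64 of the 72 libraries. Of 4 senescence markers tested, 3 were called lower in the Ws/Ler and 1 in the Col/Ler Hybrid Mimics, and 0 higher. The shares of all genes called lower were 22.9% and 13.7%. The floral marker sum was between 0.713 and 19.4 CPM over all libraries, and AP1 was at 0 in 35 of them. The part of leaf stage and composition in the differences of APR1, APR2 and LSU2 was not tested, and in bulk leaves fewer cells of a type and less RNA per cell cannot be told apart.

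Genes around the members in the sulfur pathway were read from fixed lists of sulfate transporters, assimilation enzymes, further sulfur-deficiency genes and regulators. Among the transporters, 3 of 9 tested fell in the Ws/Ler Hybrid Mimics against their small lines and 4 of 9 in the Col/Ler ones, and none rose, beside 22.9% and 13.7% of all genes lower and 23.4% and 16.6% higher in the 2 systems. SULTR1;2, a high-affinity sulfate importer known from roots, stood at 4.94 CPM in the Ws/Ler Hybrid Mimics against 14.8 CPM in the small lines, a log2 fold change of -1.59 ± 0.26 (edgeR adjusted p = 0.0013). In the Col/Ler system SULTR1;2 was at 4.35 CPM in the Hybrid Mimics against 23.4 CPM in the small lines, a log2 fold change of -2.39 ± 0.42 (edgeR adjusted p = 0.012). SULTR2;1, which moves sulfate through the vasculature, fell by 1.23 ± 0.18 in the Col/Ler Hybrid Mimics. SULTR3;4 fell there too, by 0.77, and in the Ws/Ler Hybrid Mimics SULTR2;2 and SULTR3;3 fell by 0.93 and 0.87.

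Of 19 assimilation genes tested, 2 rose and 8 fell in the Ws/Ler Hybrid Mimics, and 3 rose and 2 fell in the Col/Ler ones. The shares of all genes were 23.4% higher and 22.9% lower in the Ws/Ler and 16.6% and 13.7% in the Col/Ler system, and the Col/Ler counts are near them. The ATP sulfurylase gene ATPS4 fell by 1.69 ± 0.32 in the Ws/Ler Hybrid Mimics (edgeR adjusted p = 0.003), and the APS kinase genes APK1 and APK2, which feed glucosinolate synthesis, fell by 1.03 and 1.05. SERAT3;1, a serine acetyltransferase gene, fell in both systems, by 1.22 ± 0.15 in the Ws/Ler and 1.01 ± 0.11 in the Col/Ler Hybrid Mimics. OASB, for the plastid cysteine synthase, rose by 0.79 ± 0.11 in the Hybrid Mimics of both systems, and ATPS2 rose by 0.24 in the Ws/Ler and 0.74 in the Col/Ler ones.

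The list of further sulfur-deficiency genes had 2 of 4 lower and none higher in the Ws/Ler Hybrid Mimics, and 3 of 4 lower and none higher in the Col/Ler ones, beside 22.9% and 13.7% of all genes lower. GGCT2;1, which recycles glutathione, fell by 2.48 ± 0.59 in the Col/Ler Hybrid Mimics (edgeR adjusted p = 0.027), SHM7 by 0.92 ± 0.26 and LSU4, the neighbour of LSU2, by 1.37 ± 0.22. In the Ws/Ler Hybrid Mimics BGLU30, a dark-induced beta-glucosidase gene, fell by 3.38 ± 1.21 (edgeR adjusted p = 0.046). Among the regulators 2 rose and 3 fell of 7 in the Ws/Ler Hybrid Mimics and 1 rose and 2 fell of 8 in the Col/Ler ones, near the shares of all genes for the genes that rose. MYB51, an activator of indolic glucosinolate synthesis, fell in both, by 1.64 ± 0.31 and 1.40 ± 0.32. MYB28 and MYB76 of the aliphatic branch fell by 0.95 ± 0.14 and 1.01 in the Ws/Ler Hybrid Mimics, while HY5, a light-signalling factor, rose there by 1.13 ± 0.20. In the Col/Ler Hybrid Mimics MYB29 rose by 1.99 ± 0.28 and MYB122 fell by 2.80 ± 0.77. The median log2 fold changes of the 4 lists were -0.63, -0.33, -0.92 and 0.04 in the Ws/Ler system and -0.72, -0.06, -1.92 and -0.31 in the Col/Ler system, with the median of all genes at -0.01 and 0.00.

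The members did not vary as 1 block. Over the 72 libraries, after the group means were taken out, log2 levels of LSU1 and LSU3 had a Pearson r of 0.89 and those of LSU1 and SDI1 of 0.89. LSU1 and LSU2 had an r of only 0.42 and LSU2 and SDI1 of 0.48. Across the 24 group means, LSU1 with LSU3 reached 0.90, LSU1 with SDI1 0.91, SDI2 with APR3 0.95 and LSU1 with LSU2 0.40. APR1 and APR2 had an r of 0.42 within groups and of -0.28 across group means. These are descriptions over libraries that share depth, growth and scaling, and LSU1 lies beside LSU3 on the chromosome.

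The level of LSU2 relative to its relatives set the Ws/Ler groups apart. Log2 LSU2 minus the mean of log2 LSU1 and LSU3 averaged -1.13 in WL_HM4, -0.52 in wl_sml1, 0.08 in WL_HM3, 0.95 in wl_sml2 and 1.16 in WL_HM2. It was 1.88, 1.90, 2.04 and 2.06 in WL_HM7, WL_HM5, WL_HM6 and WL_HM1, 0.09 and 0.27 in WsxLer and LerxWs, -2.26 in Ws and 3.07 in Ler. The 3 wl_sml1 plants had values of -1.89, -1.08 and 1.42. In the Col/Ler system this difference was 1.70 or more in every group, with 2.58 in Col and 3.93 in CL_HM6.

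Genes next to LSU2 on the chromosome were then read, a choice made after the values had been seen. No genotype was read, and the parental origin of the region in each line is not known here. Of 121 loci, LSU2 with 60 on each side, 8 had Ws and Ler at least 2-fold apart without overlap at 1 CPM or more, LSU2 among them. The next gene, AT5G24670 (EMB2820, a tRNA-editing deaminase subunit), stood at 159, 183 and 129 CPM in Ws against 41.6, 41.8 and 49.4 CPM in Ler, which is the difference it was picked for. In the lines, AT5G24670 averaged 37.0 CPM in WL_HM1 and 37.4 CPM in WL_HM7, near Ler, and 145, 111, 136 and 127 CPM in WL_HM3, WL_HM4, WL_HM5 and WL_HM6, nearer to Ws, with 82.0 CPM in WL_HM2 and 97.2 CPM in wl_sml2. The 3 wl_sml1 plants were at 133, 149 and 122 CPM and the WsxLer libraries at 89.8, 86.7 and 88.8 CPM.

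WL_HM1 and WL_HM7 thus had AT5G24670 near the Ler level and LSU2 within or above the Ler range, and WL_HM3 and WL_HM4 had AT5G24670 nearer to Ws and LSU2 at 4.28 CPM or less. WL_HM5 and WL_HM6 stood apart, with AT5G24670 near Ws and LSU2 at 13.3 CPM or more. The same was so for the third wl_sml1 plant, at 122 CPM for AT5G24670 and 36.4 CPM for LSU2. AT5G25020, farther along, had 0 counts in Ws against 1.61, 1.47 and 2.34 CPM in Ler, and it stood at 1.07 to 3.16 CPM in WL_HM1, WL_HM2, WL_HM7 and wl_sml2 and at 0.151 CPM or less in WL_HM3, WL_HM4, WL_HM5, WL_HM6 and wl_sml1. LSU4, the near copy of LSU2, had 0, 0 and 2 counts in WL_HM5, 0, 0 and 2 in WL_HM6 and 15, 10 and 0 in wl_sml1, against 4, 19 and 17 in Ws and 35, 10 and 48 in Ler. The LSU4 counts were thus at or near 0 in the same plants of the Ws/Ler system in which LSU2 was high and AT5G24670 near Ws. LSU2 and LSU4 are near copies, and how the counting divided reads between them was not tested.

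**Figure D5:**
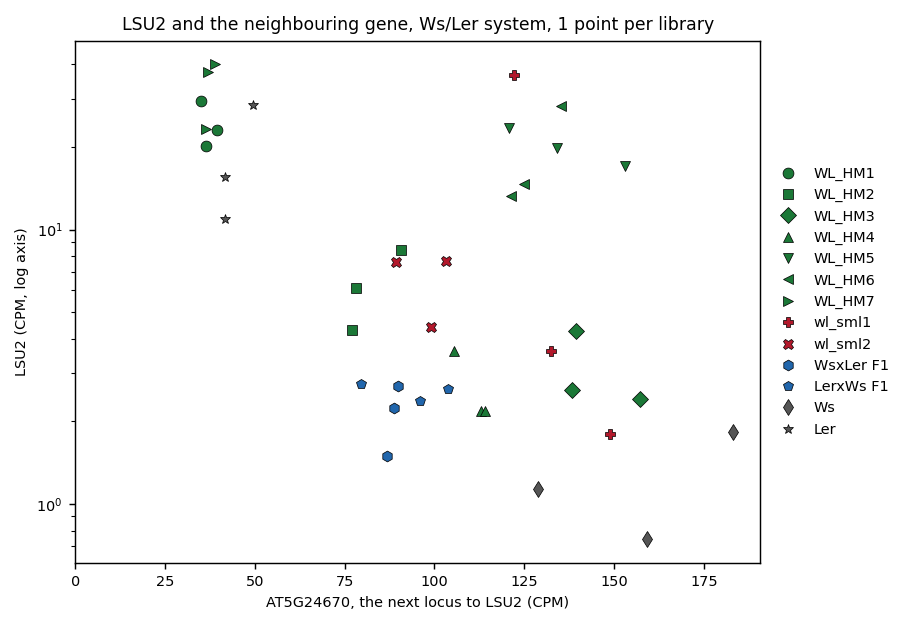
CPM of the neighbouring gene AT5G24670 on the x axis against CPM of LSU2 on a logarithmic y axis, 1 point per library for the 13 groups of the Ws/Ler system, with Ler included. Ws lies at the lower right and Ler at the upper left, and WL_HM5, WL_HM6 and the third wl_sml1 plant lie at the upper right.

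The genes whose profile over the 24 group means was most like the mean of the members, among 18297 genes and leaving out the members, were SHM7 with r = 0.87, AT5G26220 (GGCT2;1) with 0.86, AT1G76960, VP2 and AT3G56200 with 0.84, HSP91 with 0.83, GEK1 and AT4G38500 with 0.82, APY1 with 0.81 and AT1G80970 with 0.80. SHM7 and GGCT2;1 were on the list of sulfur-deficiency genes, and both had their highest group means in the Col/Ler small lines. The genes most like LSU2 alone were AT1G34020 and AT1G35710 with r = 0.88, AT1G47970 and ECS1 with 0.84 and AT4G01200 with 0.83, none of which was on the lists. These likenesses are over 24 group means in which Ler and its descendants recur, and they are given as a description.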

How the data were processed

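Per the labels and the study's methods, the authors aligned the reads with STAR 2.5.3a to TAIR10 (annotation Araport11), and raw counts were deposited for 37336 genes. The strand column they took is not given in the sources used here. The table had 0 rows without a gene name and 0 columns of no sample.

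Counts were tested with edgeR 4.0.16 in R 4.3.3 (TMM, quasi-likelihood, Benjamini-Hochberg over all genes tested, adjusted p of 0.05 or less) on genes that reached 50 counts in 1 or more libraries of the fit. Parents were compared in a fit of parents, lines with an MPV of summed parental counts in a fit per system, and Hybrid Mimics with small lines on counts summed per line. CL_HM5 and CL_HM6, which the study excluded, were left out of the last comparison only. LSU2 was in all fits, but its tests on contrasts with the parents are not given as results and enter only counts over all members. Alternatives were DESeq2 1.42.0, other scaling, other filters, a replicate block, the MPV on the log scale and leaving out each library or line. The scripts were tested on simulated data with known changes. Library totals of 17741358 to 28527725 counts set the precision, and LSU1, LSU2, LSU3, SDI1 and BGLU28 are the least precise members.

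Sequences and positions are RefSeq's in TAIR10.1, read with Biopython 1.88. Genes were joined by locus number, and no coordinate comes from the counts. Correlations used log2 CPM with a prior count of 2.

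Named genes were the 9 members, the 10 other genes most like their mean, the 5 most like LSU2 and at most 12 pathway genes called per comparison, by size of change. OASB and ATPS2, named by this rule in the Col/Ler comparison, are given for the Ws/Ler one as well. Neighbours of LSU2 were chosen after their values were seen. The members and lists were chosen with earlier results of these data known.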

Additional observations from a re-analysis of the deposited data

Results flagged for a closer look

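For each member, the Hybrid Mimic line means and the F1 libraries of each system were examined for a value far from the others. Of these 36 sets 1 had such a value, and chance alone gives about 1 in 20. BGLU28 in the 6 Ws/Ler F1 libraries was at 0.494 CPM in the second LerxWs library, with 11 counts, against a next highest value of 0.105 CPM. Its gap to the nearest library was 0.788 of the range of the 6. The difference between the Ws/Ler and Col/Ler systems in the change of Hybrid Mimics against small lines was tested for 9 members and none was called.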

How the results depend on the processing

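The counts here cover all members, with LSU2 against parental levels and BGLU28 included. The choice of the set and the count filter shaped the calls of these genes, so the counts are no support for them. Of 67 called member comparisons, read under 2531 combinations with an alternative, 2411 kept the call, 120 lost it and 0 reversed direction. Many of these alternatives left out a library of a group outside the comparison, which hardly moved its fold change. The number of kept calls therefore overstates how firm the calls are. The tests of differences among lines are part of these and have no direction, so they could not reverse. Values that had not been called at first did turn sign in places. For example, LSU2 in wl_sml1 went from 0.57 to -1.83 without the third library of that line, and SDI1 there from 0.46 to -0.29. With the MPV on the log scale, LSU2 went from -0.61 to 0.41 in WL_HM2 and from -0.53 to 0.46 in wl_sml2. In the Col/Ler Hybrid Mimics against small lines, APR2 went from 0.22 to -0.03 with total-count scaling. Without CL_HM5 and CL_HM6 in the fit, the 7 members other than LSU2 and BGLU28 had 4 higher and 2 lower calls in CL_HM1 to CL_HM4. With at least 50 counts in every library, which removes low genes by construction, called members were 1 in place of 2 for Ws against Ler, 15 in place of 31 for the Col/Ler lines against MPV, 4 in place of 7 among the Ws/Ler lines and 5 in place of 9 among the Col/Ler lines. Hybrid Mimics against small lines gave 4 in place of 2 in the Ws/Ler and 8 in place of 2 in the Col/Ler system with libraries as units, with or without a replicate block, 4 in the Ws/Ler system with total-count scaling, 6 in the Col/Ler system with DESeq2, 3 with total-count scaling and 1 with CL_HM5 and CL_HM6 included. Ws against Ler gave 1 in a fit of these groups alone. The MPV on the log scale gave 18 in place of 12 in the Ws/Ler lines. Leaving out 1 library or line at a time gave 1 to 4 for Ws against Ler, 2 to 5 for Col against Ler, 8 to 19 for the Ws/Ler and 22 to 31 for the Col/Ler lines against MPV, 2 to 4 and 0 to 8 for Hybrid Mimics against small lines in the Ws/Ler and Col/Ler system, 6 to 8 among the Ws/Ler lines, 9 among the Col/Ler lines and 0 for the reciprocal hybrids. The cause of these changes was not tested.

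Replicate numbers gave no steady pairing of the samples. Same-numbered deviations correlated at -0.05, -0.42 and -0.44 for Ws and Ler and -0.01, 0.28 and 0.16 for Col and Ler. They correlated at 0.13, 0.05 and 0.53 for the Ws/Ler reciprocal hybrids and -0.44, 0.51 and -0.03 for the Col/Ler ones. Between F7 lines the median was 0.05 in the Ws/Ler and 0.004 in the Col/Ler system. The replicate block gave 1 called member for Ws against Ler, 2 for Col against Ler, 12 and 29 for the Ws/Ler and Col/Ler lines against MPV, 8 and 9 among the lines and 0 for the reciprocals.

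Called genes over the whole table ran, over the alternatives, between 1823 and 4646 for Ws against Ler (3524 as reported), 1544 and 3303 for Col against Ler (2448), 7829 and 12920 for the Ws/Ler Hybrid Mimics against small lines (8794) and 5190 and 12425 for the Col/Ler ones (5682), and between 676 and 7171 when 1 line was left out of the last. Total-count scaling moved the median of all genes by -0.21 and -0.25 in these 2 comparisons and the share of higher calls to 30% and 26.6%, against 50.5% and 54.8%. In the small lines against MPV it moved the median by 0.14 to 0.26 and the share of higher calls to 72.1% in cl_sml1, 73.3% in cl_sml2, 66.2% in wl_sml1 and 69.2% in wl_sml2, against 45.0%, 46.4%, 48.4% and 47.2%. Depth limits LSU1, LSU2, LSU3, SDI1 and BGLU28, which had fewer than 50 counts in at least 10 libraries each.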
